A study of Mus musculus with 48 samples.

Results

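The NF-kappa B pathway was followed through 7 genes, which were taken by symbol from the 547 endogenous genes of the nCounter Mouse Immunology panel and measured in epididymal white adipose tissue of 48 mice on 6 diets. They were the transcription factor subunits Nfkb1, Rela and Relb, the inhibitors Nfkbia and Tnfaip3, and the signal carriers Irak2 and Card9. The panel counts single RNA molecules by hybridising a barcoded probe to each gene, with no amplification. All mice were C3H/HeOuJ, an inbred strain, and had been fed for 6 months. The labels give neither age nor sex. Of the 6 groups, 5 received a diet with 42% of calories as carbohydrate and 42% as fat. Of the custom diets, sucrose/palmitate was fed to 8 mice and starch/palmitate to 7, and sucrose/oleate and starch/oleate were fed to 9 mice each. A commercial Western diet was fed to 7 mice. The other 8 mice received chow, which came from another supplier than the fat-rich diets, so that those differed from chow in more than the kind of fat.

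NF-kappa B is a family of dimeric transcription factors that rest in the cytoplasm, bound by I kappa B proteins such as the product of Nfkbia. Signals from cytokine receptors, Toll-like receptors and C-type lectin receptors activate kinases that mark I kappa B for degradation, after which the dimers enter the nucleus and turn on genes of inflammation, among them those for their own inhibitors. In white fat of obese animals the pathway is studied in macrophages, which gather around adipocytes, and in the adipocytes themselves.

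Between 396391 and 888687 counts per library fell on the endogenous and reference genes together, with a median of 635028.5. The 7 genes were far above the negative control probes, whose mean count was 7.51 and whose highest was 21. The lowest single count of a member was 47, of Card9. In RefSeq's annotation of GRCm38.p6 the genes lie with Nfkb1 at chr3:135584655-135691969, Rela at chr19:5637442-5648134, Relb at chr7:19606217-19629438, Nfkbia at chr12:55489409-55492647, Tnfaip3 at chr10:19000910-19015410, Irak2 at chr6:113638467-113695026 and Card9 at chr2:26352187-26360945. Counts were scaled to 14 reference genes, and values below are such scaled counts unless stated otherwise. One probe stands for each gene, so levels were compared between diets and not between genes. The tissue label was checked against 3 adipocyte markers measured here, Pparg, Cfd and Cd36, which were detected in every diet group. In 5 libraries epithelial genes stood apart (starch/palmitate replicates 1 and 3, starch/oleate replicates 2 and 6, Western diet replicate 2), and results were also computed without them.

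The 4 members Tnfaip3, Card9, Nfkb1 and Irak2 differed among the diets, and the other members, Rela, Nfkbia and Relb, did not pass the test of any difference among the 6 groups. With reference-gene scaling Tnfaip3 and Card9 rose on each of the 5 fat-rich diets relative to chow, by 1.86-fold and 2.00-fold with starch/oleate. Irak2 fell on each of the 5 diets, by 1.43-fold with starch/oleate. Nfkb1 rose with both oleate diets and the Western diet, of which the Western diet was called when libraries were scaled by TMM instead of the reference genes. Under TMM scaling neither Tnfaip3 nor Card9 was called with either palmitate diet (adjusted p between 0.11 and 0.19). With the same scaling Relb was lower than in chow with starch/palmitate, both oleate diets and the Western diet (adjusted p between 0.00017 and 0.025). Nfkbia was lower with starch/palmitate and both oleate diets (adjusted p between 0.0015 and 0.036). The kind of fat separated Tnfaip3 most clearly, since its level was lower with palmitate than with oleate at either carbohydrate. The test of any difference (edgeR, quasi-likelihood) gave adjusted p-values of 5.31e-07 for Tnfaip3, 1.90e-05 for Irak2, 0.000111 for Card9 and 0.000445 for Nfkb1, against 0.133 for Rela, 0.139 for Nfkbia and 0.489 for Relb. It called 4 of the 7 members, and 64.8% of the 491 genes tested.

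**Figure D1:**
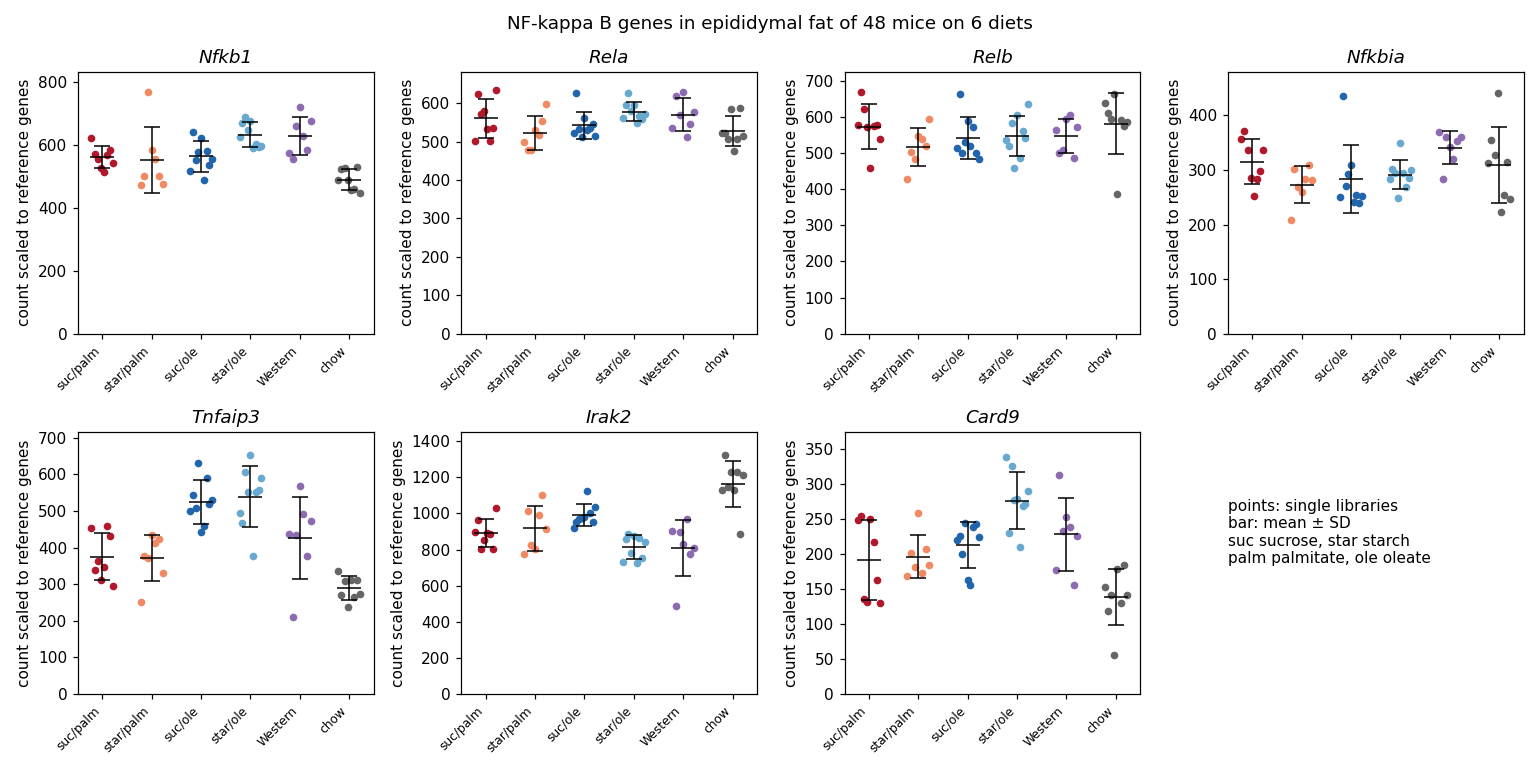
Scaled counts of the 7 genes (vertical axes, from 0) in each of the 48 libraries by diet (horizontal axes; suc, sucrose; star, starch; palm, palmitate; ole, oleate), with the mean and SD of each group. Tnfaip3 with either oleate diet lies wholly above chow, Irak2 with starch/oleate lies wholly below chow, and the Nfkbia, Rela and Relb groups overlap. Of all genes tested, 24.2% did not overlap chow with starch/oleate and 5.50% with sucrose/oleate.

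How far the members varied differed as well. Rela was the steadiest of the 7, with a coefficient of variation between 4.23% and 9.12% within diets and a highest diet mean only 1.11 times the lowest. Relb and Nfkbia had means within 1.13-fold and 1.25-fold, but Nfkbia varied by up to 22.7% among mice of one diet. Card9 spanned 2.00-fold between diet means, Tnfaip3 1.86-fold, Irak2 1.44-fold and Nfkb1 1.29-fold.

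Of the 3 subunits among the 7 genes, Nfkb1, which encodes the p105 precursor of p50, passed against chow in 3 diets with reference-gene scaling. Under TMM scaling, which uses all genes, it passed with the Western diet (adjusted p = 0.0428) and not with starch/oleate (adjusted p = 0.540) or sucrose/oleate (adjusted p = 0.802). Its scaled count had a lowest, median and highest value of 591, 624.6 and 691 with starch/oleate, of 555, 629 and 721 with the Western diet, and of 448, 488 and 530.1 with chow. Every starch/oleate and Western diet library thus lay above every chow library, where 24.2% and 5.91% of all genes had groups that did not overlap. The rise was 0.37 ± 0.07 on the log2 scale (SE) with starch/oleate (adjusted p = 3.59e-05, 9 mice against 8) and 0.36 ± 0.08 with the Western diet (adjusted p = 0.000317, 7 mice against 8).

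With sucrose/oleate Nfkb1 had values of 488, 555 and 642, and 7 of 9 libraries exceeded the highest chow value, for a difference of 0.20 ± 0.07 (adjusted p = 0.0264). The palmitate diets gave 513, 562 and 623 with sucrose and 472, 503 and 769.8 with starch, differences of 0.20 ± 0.08 (adjusted p = 0.0615) and 0.17 ± 0.08 (adjusted p = 0.0895) from chow that did not pass. In the order of the diet means, from chow up through starch/palmitate, sucrose/palmitate, sucrose/oleate and the Western diet to starch/oleate, only the step from sucrose/oleate to the Western diet was larger than the SD of both neighbours. The call with sucrose/oleate was lost without any one of chow replicates 5, 6 and 8 or sucrose/oleate replicates 2 and 5 (adjusted p between 0.0501 and 0.0611). Without any one of chow replicate 7, starch/palmitate replicate 3 and Western diet replicate 2 the difference with sucrose/palmitate was called (adjusted p between 0.0297 and 0.0488), and without starch/palmitate replicate 1 or 7 that with starch/palmitate was (adjusted p = 0.0479 and 0.0475).

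Rela encodes p65, the subunit with the strongest transactivation in the classical dimer. Its lowest, median and highest scaled counts were 549, 573 and 627 with starch/oleate and 477, 519 and 587 with chow, and the groups overlapped. The difference of 0.13 ± 0.06 passed narrowly (adjusted p = 0.0465), and it was -0.19 (adjusted p = 0.0520) under TMM scaling. It was also lost when any one of 13 libraries was left out (chow replicates 1, 2, 3, 5, 6 and 8, starch/oleate replicates 2, 3, 4, 5, 7 and 9, and Western diet replicate 3), with adjusted p between 0.0503 and 0.103. Against chow, the other 4 diets gave differences between -0.01 and 0.11 that did not pass.

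Relb, which pairs with p52 in the alternative branch of the pathway, did not pass in any of the 13 comparisons. Its diet means ran from 517 ± 52.7 with starch/palmitate to 574 ± 61.1 with sucrose/palmitate (SD), against 581 ± 84.1 with chow. Differences from chow lay between -0.17 and -0.02, the lowest with starch/palmitate (95% interval -0.34 to 0.00). The chow group held one low library, replicate 5 at 386, without which the difference with starch/palmitate was -0.24 (adjusted p = 0.0271). For Rela, Relb and Nfkbia the differences between neighbouring diet means were all within the SD of at least one neighbour.

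The scale on which these differences stand matters for the subunits. With reference-gene scaling the median log2 difference from chow over all 491 genes was 0.20 with sucrose/palmitate, 0.24 with starch/palmitate, 0.19 with sucrose/oleate, 0.34 with starch/oleate and 0.25 with the Western diet, and with TMM scaling these medians were 0.06, 0.08, 0.01, 0.03 and 0.06. The rise of Nfkb1 thus stood close to the median gene. Under TMM scaling Nfkb1 was called with the Western diet (0.17 ± 0.06, adjusted p = 0.0428), and it had 0.05 ± 0.06 with starch/oleate (adjusted p = 0.540) and 0.02 ± 0.06 with sucrose/oleate (adjusted p = 0.802). Relb under TMM scaling was lower than in chow with starch/palmitate (-0.32, adjusted p = 0.0131), sucrose/oleate (-0.29, adjusted p = 0.0116), starch/oleate (-0.41, adjusted p = 0.000175) and the Western diet (-0.28, adjusted p = 0.0249). Of the 14 reference genes themselves, 1 to 9 passed against chow, the most with starch/oleate.

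A ratio of counts within one library does not depend on the scaling, so each member was also set against Rela. The ratio of Nfkb1 to Rela counts averaged 1.09 ± 0.03 with starch/oleate and 1.11 ± 0.11 with the Western diet, against 0.93 ± 0.07 with chow (SD). It was higher by 0.23 ± 0.09 with starch/oleate (adjusted p = 0.0219) and by 0.25 ± 0.09 with the Western diet (adjusted p = 0.0342), and the other 3 diets did not pass. The ratio of Relb to Rela was lower with starch/oleate by -0.22 ± 0.08 (adjusted p = 0.0185), and the differences of -0.10, -0.15, -0.14 and -0.19 with sucrose/palmitate, starch/palmitate, sucrose/oleate and the Western diet did not pass (adjusted p between 0.0787 and 0.439). Relative to Rela, 1 of 6 members passed with sucrose/palmitate (7.55% of genes), 2 with starch/palmitate (25.5%), 3 with sucrose/oleate (33.5%), 5 with starch/oleate (54.7%) and 4 with the Western diet (33.1%).

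Of the inhibitors, with reference-gene scaling Tnfaip3 rose on each fat-rich diet and Nfkbia passed with none. Nfkbia encodes I kappa B alpha, which holds the dimers in the cytoplasm and is itself a classical NF-kappa B target. Tnfaip3 encodes A20, a ubiquitin-editing enzyme that ends signalling upstream of the kinases and is likewise induced by NF-kappa B. Their promoter sequences are shown because both genes are textbook NF-kappa B targets. They are from RefSeq (GRCm38.p6), from 250 bases before to 50 after the annotated start, 5′ to 3′ on the gene strand (minus in both), with matches to the kappa B consensus in capitals.
Tnfaip3, chr10:19015361-19015660: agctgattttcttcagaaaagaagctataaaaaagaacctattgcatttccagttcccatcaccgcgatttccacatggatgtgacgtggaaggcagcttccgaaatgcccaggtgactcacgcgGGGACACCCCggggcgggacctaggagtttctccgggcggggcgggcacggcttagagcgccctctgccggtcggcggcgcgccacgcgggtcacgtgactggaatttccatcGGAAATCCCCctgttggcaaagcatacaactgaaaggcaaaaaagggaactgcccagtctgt
Nfkbia, chr12:55492598-55492897: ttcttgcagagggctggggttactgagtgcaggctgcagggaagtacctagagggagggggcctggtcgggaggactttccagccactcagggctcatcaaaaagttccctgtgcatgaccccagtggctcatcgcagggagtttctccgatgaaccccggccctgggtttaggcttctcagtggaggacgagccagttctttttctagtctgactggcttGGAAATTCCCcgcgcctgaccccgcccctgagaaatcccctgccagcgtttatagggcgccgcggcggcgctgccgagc
The consensus, a motif of 10 letters with degenerate positions, was searched on both strands. Tnfaip3 had 2 matches, which did not overlap each other, starting 125 and 12 bases before the annotated start, and Nfkbia had 1, starting 29 bases before it. A second Tnfaip3 promoter in the table, and those of Irak2, Rela and Card9, held no match, and promoters of Nfkb1 and Relb were not used here. A match was found in 4.51% of all 32851 promoters and in 9.8% of 449 promoters of the tested panel genes.

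Nfkbia passed in none of the 13 comparisons. Its lowest, median and highest scaled counts were 283, 353 and 369 with the Western diet and 249, 294 and 349 with starch/oleate, against 223, 314 and 441 with chow, so that chow spanned both. The difference from chow was 0.14 ± 0.12 with the Western diet (95% interval -0.09 to 0.37) and -0.08 ± 0.11 with starch/oleate (-0.30 to 0.13). The remaining diets gave 0.03 with sucrose/palmitate, -0.18 with starch/palmitate and -0.13 with sucrose/oleate. Under TMM scaling it was lower than in chow with starch/palmitate (-0.33, adjusted p = 0.0363), sucrose/oleate (-0.32, adjusted p = 0.0209) and starch/oleate (-0.42, adjusted p = 0.00151), and its ratio to Rela passed in no comparison.

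Tnfaip3 was the member with the smallest p-value across the diets. Its lowest, median and highest scaled counts were 376, 553 and 653 with starch/oleate, 444, 518 and 632 with sucrose/oleate, and 238, 290.5 and 335 with chow. All 9 mice on each oleate diet lay above the highest chow mouse. Groups did not overlap for 24.2% of all genes with starch/oleate and for 5.50% with sucrose/oleate. The rises were 0.90 ± 0.13 (adjusted p = 1.97e-07) and 0.86 ± 0.13 (adjusted p = 2.42e-06), both above the median gene. In whole tissue, more cells of a type and more RNA per cell cannot be told apart.

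With the Western diet Tnfaip3 had 209, 436 and 568.3, and 6 of 7 mice exceeded every chow mouse while replicate 2, one of the libraries with high epithelial genes, lay below all of them. The rise was 0.56 ± 0.13 (adjusted p = 0.000907), and 0.68 ± 0.10 (adjusted p = 1.44e-06) without the 5 libraries that stood apart. The palmitate diets showed the smallest rises. Values were 296, 355 and 459 with sucrose/palmitate and 252, 376 and 436 with starch/palmitate, rises of 0.37 ± 0.13 (adjusted p = 0.0422) and 0.36 ± 0.13 (adjusted p = 0.0419). In sucrose/palmitate 6 of 8 mice exceeded the chow range, and in starch/palmitate 5 of 7. The first of these calls was lost without any one of chow replicates 2, 3, 4, 6 and 8 or sucrose/palmitate replicates 1, 6 and 7 (adjusted p between 0.0522 and 0.0952), and the second without any one of chow replicates 2, 4, 6 and 8 or starch/palmitate replicates 2 to 6 (adjusted p between 0.0501 and 0.0980).

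In the order of diet means of Tnfaip3, only the step from chow (289 ± 31.99) to starch/palmitate (372 ± 63.8) exceeded the SD of both neighbours. Above these followed sucrose/palmitate (375 ± 64.1), the Western diet (427 ± 113), sucrose/oleate (525 ± 59.2) and starch/oleate (539 ± 82.7). Sucrose/oleate against starch/oleate gave -0.04 ± 0.12 (adjusted p = 0.858), and 0.11 ± 0.10 under TMM scaling (adjusted p = 0.469). The ratio to Rela averaged 0.97 ± 0.13 with sucrose/oleate and 0.93 ± 0.13 with starch/oleate, against 0.55 ± 0.08 with chow, and it was higher by 0.82 ± 0.14 (adjusted p = 5.34e-05) and 0.75 ± 0.14 (adjusted p = 4.01e-05). Under TMM scaling the differences of Tnfaip3 were 0.58 ± 0.10 with starch/oleate (adjusted p = 7.10e-06), 0.69 ± 0.10 with sucrose/oleate (adjusted p = 1.48e-06) and 0.34 ± 0.11 with the Western diet (adjusted p = 0.0129), and those with the palmitate diets, 0.21 each, did not pass (adjusted p = 0.157 with sucrose and 0.141 with starch). The ratio was also higher with the Western diet (0.45 ± 0.15, adjusted p = 0.0213), and both palmitate diets missed the threshold on it (adjusted p = 0.167 with sucrose and 0.0637 with starch).

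Summed markers of macrophages had their highest medians in the oleate diets, as Tnfaip3 did. The macrophage medians were 50593 with starch/oleate, 38977 with sucrose/oleate and 38796 with the Western diet. Sucrose/oleate and the Western diet were thus close in this sum, while their Tnfaip3 medians were 518 and 436. The summed scaled counts of the 8 measured macrophage markers of 11 listed ran from 32231 to 56095 with starch/oleate, from 28800 to 44547 with sucrose/oleate, from 9374 to 47360 with the Western diet, from 13333 to 42613 with sucrose/palmitate and from 15073 to 41002 with starch/palmitate, against 5379 to 27501 with chow. None of these markers was near background. The marker lists shared genes, so their counts are not independent. Itgax was listed for macrophages and dendritic cells, and Ccr7 for dendritic cells and B cells. Cd83 was listed for dendritic cells and among the target genes below. Markers on the other immune cell lists rose with starch/oleate as well, 4 of 5 for dendritic cells (median 0.97), 3 of 4 tested for neutrophils (1.64), 6 of 8 for T cells (0.96) and 9 of 9 tested for B cells and lymph node (1.34), against 8 of 8 for macrophages (1.38). Of all genes 48.3% rose there, with a median of 0.34. Under TMM scaling 4, 3, 4, 8 and 8 markers rose, in the same order of lists. The median of all genes was 0.03 under TMM scaling, and the share of them that rose was not counted. Summed dendritic cell markers had medians of 8939 with starch/oleate and 8633 with sucrose/oleate, against 2889 with chow. Summed neutrophil markers overlapped, from 333 to 4209 with starch/oleate (median 917) and from 259 to 1422 with chow (median 714). With sucrose/oleate their median was 564. The part of the dendritic cell, neutrophil and T cell lists in the differences of Tnfaip3 and Card9 was not tested. A list used as a covariate was entered as the mean log2 scaled count of its measured markers, not as their sum. The B cell and lymph node list as a covariate left Tnfaip3 called with both oleate diets and Card9 with starch/oleate. With the macrophage list as a covariate, the difference of Tnfaip3 was 0.42 ± 0.10 with sucrose/oleate (adjusted p = 0.00349) and 0.31 ± 0.12 with starch/oleate (adjusted p = 0.0430), and it was 0.13 ± 0.11 with the Western diet (adjusted p = 0.400), 0.10 ± 0.09 with sucrose/palmitate (adjusted p = 0.508) and 0.06 ± 0.10 with starch/palmitate (adjusted p = 0.663). With the same covariate Nfkb1 had 0.23 ± 0.09 with starch/oleate (adjusted p = 0.0571) and 0.10 ± 0.08 with sucrose/oleate (adjusted p = 0.429), and Irak2 -0.28 ± 0.10 with sucrose/oleate (adjusted p = 0.0587).

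Irak2, a kinase of the complex that MYD88 builds beneath Toll-like and IL-1 receptors, was the member that fell. Its lowest, median and highest scaled counts were 726, 842 and 887 with starch/oleate, 486, 830.4 and 969 with the Western diet, and 889, 1179.7 and 1326 with chow. All 9 starch/oleate libraries lay below the lowest chow library, where 24.2% of all genes had groups that did not overlap. With the Western diet 4 of 7 libraries lay below it. Irak2 fell by 0.51 ± 0.09 with starch/oleate (adjusted p = 3.55e-06) and by 0.52 ± 0.09 with the Western diet (adjusted p = 3.44e-05).

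The other diets had smaller falls of Irak2. Its values were 802, 889 and 1029.8 with sucrose/palmitate, 774, 912 and 1105 with starch/palmitate and 917, 976 and 1124 with sucrose/oleate. All 8, all 7 and all 9 mice lay below the chow mean of 1162 ± 129 (SD). The differences were -0.38 ± 0.09 (adjusted p = 0.00630), -0.34 ± 0.09 (adjusted p = 0.00645) and -0.23 ± 0.09 (adjusted p = 0.0334). The last was lost without any one of chow replicates 2, 4, 6 and 8 or sucrose/oleate replicates 1 and 2 (adjusted p between 0.0519 and 0.0831).

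In the order of its means, from the Western diet (809 ± 157) up through starch/oleate (813 ± 65.6), sucrose/palmitate (891 ± 77.2), starch/palmitate (917 ± 124) and sucrose/oleate (990.4 ± 60.2) to chow, the steps from starch/oleate to sucrose/palmitate and from sucrose/oleate to chow exceeded the SD of both neighbours. Under TMM scaling Irak2 was lower in all 5 diets, by -0.41 to -0.85, and so was its ratio to Rela, which averaged 1.41 ± 0.08 with starch/oleate and 1.44 ± 0.35 with the Western diet, against 2.22 ± 0.32 with chow. That ratio differed by -0.66 ± 0.10 with starch/oleate (adjusted p = 1.24e-06) and by -0.62 ± 0.11 with the Western diet (adjusted p = 3.82e-05).

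The sum of the adipocyte markers moved the same way as Irak2. The summed counts of Pparg, Cfd and Cd36 ran from 53011 to 73992 with starch/oleate and from 23954 to 65501 with the Western diet, against 83966 to 303893 with chow. They ran from 63017 to 141135 with sucrose/palmitate, from 59216 to 87052 with starch/palmitate and from 68844 to 105137 with sucrose/oleate. Of the 3 markers, 2 fell with each oleate diet, and all 3 fell with each other fat-rich diet. With starch/oleate 60.3% of all genes rose or fell, and 48.3% rose. The part of the adipocyte markers in the differences of Irak2 was not tested.

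Card9 encodes the adaptor that joins C-type lectin receptors, through the kinase SYK, to BCL10 and MALT1 in myeloid cells. With starch/oleate it had the largest difference of the 7 under reference-gene scaling. Its lowest, median and highest scaled counts were 209, 277 and 339 with starch/oleate, 155, 233 and 313 with the Western diet and 56.0, 141 and 184 with chow. All 9 starch/oleate mice exceeded every chow mouse, where 24.2% of all genes had groups that did not overlap, and 5 of 7 Western diet mice did. The rises were 1.00 ± 0.16 (adjusted p = 2.38e-06) and 0.72 ± 0.17 (adjusted p = 0.000973).

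With sucrose/oleate Card9 had values of 155, 225 and 244, with 7 of 9 above the chow range. With starch/palmitate it had 169, 184 and 258, and with sucrose/palmitate 130.0, 189.96 and 254. The rises were 0.62 ± 0.16 (adjusted p = 0.00243), 0.51 ± 0.17 (adjusted p = 0.0251) and 0.47 ± 0.17 (adjusted p = 0.0476). In sucrose/palmitate the mice lay apart from each other, 4 above every chow mouse and 3 below the chow mean. The call with sucrose/palmitate was lost without any one of 20 libraries (adjusted p between 0.0501 and 0.119), which were chow replicates 2, 3, 4, 6 and 8, sucrose/palmitate replicates 1, 2, 5, 6 and 7, starch/palmitate replicates 1 and 6, sucrose/oleate replicates 3 and 8, starch/oleate replicates 7, 8 and 9, and Western diet replicates 3, 5 and 7. That with starch/palmitate was lost without chow replicate 2 or 4 or starch/palmitate replicate 4 (adjusted p between 0.0504 and 0.0790).

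The order of its means ran from chow (138 ± 39.9) through sucrose/palmitate (191 ± 56.9), starch/palmitate (196 ± 30.7), sucrose/oleate (213 ± 33.1) and the Western diet (228 ± 51.5) to starch/oleate (276 ± 40.7), and no step between neighbours exceeded the SD of both. Under TMM scaling the rises of Card9 with sucrose/oleate (0.47 ± 0.16, adjusted p = 0.0198), starch/oleate (0.70 ± 0.16, adjusted p = 0.000300) and the Western diet (0.58 ± 0.17, adjusted p = 0.00830) were called, and those with the palmitate diets were not. With the macrophage list as a covariate, the difference was 0.54 ± 0.18 with starch/oleate (adjusted p = 0.0236) and 0.47 ± 0.16 with the Western diet (adjusted p = 0.0200). The other diets had adjusted p-values between 0.172 and 0.255.

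**Figure D2:**
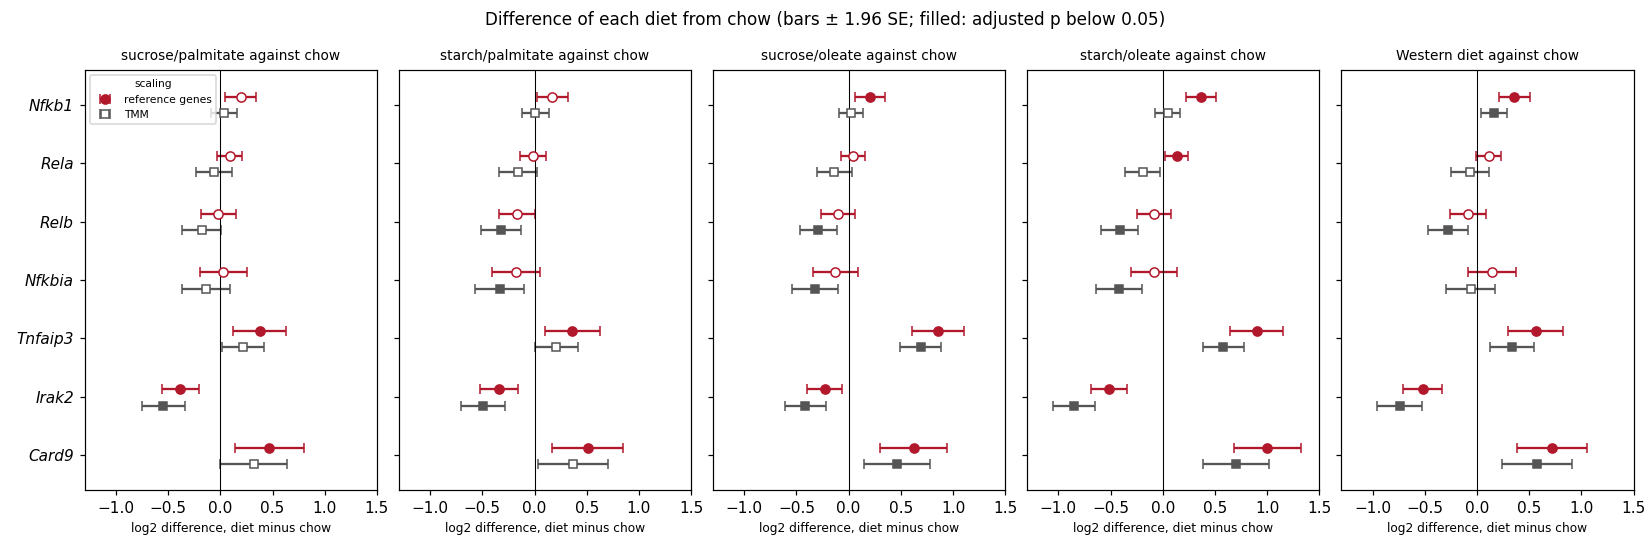
Log2 difference of each fat-rich diet from chow (horizontal axes) for the 7 genes (rows), with bars for the 95% interval; circles are scaled to the reference genes, squares by TMM, and filled symbols have an adjusted p below 0.05. Tnfaip3 and Card9 lie right of 0 and Irak2 left of 0 in every panel under both scalings, and TMM moves all genes to the left.

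Counted by diet, 3 of the 7 members were called with sucrose/palmitate, where 17.1% of the genes tested were, 3 with starch/palmitate (25.3%), 4 with sucrose/oleate (36.7%), 5 with starch/oleate (60.3%) and 4 with the Western diet (40.7%). The share of members called was thus near that of the panel with starch/oleate. The median difference of the 7 members was 0.09, -0.01, 0.04, 0.13 and 0.14 in the same order of diets, below the median of all genes given above in each. The 5 comparisons share the 8 chow libraries, so their agreement is not independent. The ratio of positive control probes A and B, a technical measure, lay wholly below the chow range (3.17 to 3.39) with sucrose/oleate (2.92 to 3.07) and with starch/palmitate (2.92 to 3.16). With sucrose/palmitate it ran from 2.99 to 3.56, and replicates 5 to 8 lay below the chow range. With starch/oleate it ran from 3.11 to 3.28, and replicates 3, 6, 7, 8 and 9 lay below the chow range. With the Western diet it ran from 3.27 to 3.43, and replicates 1, 5 and 7 lay above the chow range. With that ratio as a covariate the calls of Tnfaip3, Irak2 and Card9 with starch/palmitate and of Irak2, Nfkb1 and Card9 with sucrose/oleate were lost, while Tnfaip3 with sucrose/oleate was kept (0.73 ± 0.19, adjusted p = 0.0172). The calls of Tnfaip3 (adjusted p = 0.087) and Card9 (adjusted p = 0.078) with sucrose/palmitate were lost as well.

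The custom diets cross 2 carbohydrates with 2 fats, which asks whether the kind of fat or of carbohydrate bears on the members. The fat separated 2 of 7 members, Tnfaip3 and Card9 (34.4% of all genes). Over both carbohydrates Tnfaip3 averaged 373 in 15 palmitate mice and 532 in 18 oleate mice, a difference of -0.51 ± 0.09 (adjusted p = 4.53e-05). All 15 palmitate mice lay below the oleate mean, and 9 lay below the lowest oleate mouse. The difference was -0.48 ± 0.13 with sucrose (adjusted p = 0.0284) and -0.54 ± 0.13 with starch (adjusted p = 0.00243), and -0.42 ± 0.07 over both under TMM scaling (adjusted p = 2.92e-05). With the macrophage list as a covariate it was -0.28 ± 0.07 over both (adjusted p = 0.00314) and -0.25 ± 0.10 with starch (adjusted p = 0.0788). Relative to Rela it was -0.45 ± 0.10 (adjusted p = 0.00161), and Tnfaip3 was the only member of 6 to pass there (30.6% of genes). That ratio passed with sucrose (-0.51 ± 0.14, adjusted p = 0.0414, the 1 member of 6, 3.06% of genes). The call of Tnfaip3 with sucrose was lost with the replicate number as a block (-0.47 ± 0.13, adjusted p = 0.0652), when the ratio of positive controls was added as a covariate (-0.39 ± 0.17, adjusted p = 0.312), and without any one of sucrose/palmitate replicates 4 and 8 and sucrose/oleate replicates 4, 7 and 8 (adjusted p between 0.0521 and 0.0630).

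Card9 averaged 194 in palmitate mice and 244 in oleate mice, a difference of -0.32 ± 0.12 (adjusted p = 0.0281), with 11 of 15 palmitate mice below the oleate mean. The difference was -0.49 ± 0.17 with starch (adjusted p = 0.0227) and -0.15 ± 0.16 with sucrose (adjusted p = 0.588). Over both carbohydrates it was not called under TMM scaling (-0.24 ± 0.12, adjusted p = 0.0904) or with the macrophage list as a covariate (-0.13 ± 0.11, adjusted p = 0.507), nor without any one of sucrose/palmitate replicates 3, 4 and 8 (adjusted p between 0.0505 and 0.0519).

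With starch, 3 of 7 members differed between the fats (32.6% of all genes), Tnfaip3, Card9 and Nfkb1. Nfkb1 averaged 552 with starch/palmitate and 633 with starch/oleate, a difference of -0.20 ± 0.08 (adjusted p = 0.0420). Starch/palmitate replicate 3 held the highest Nfkb1 value of all 48 mice, 769.8, and is one of the libraries with high epithelial genes. Without it Nfkb1 was also lower with palmitate over both carbohydrates (-0.15, adjusted p = 0.00923), its interaction was 0.29 (adjusted p = 0.0457), and its difference between sucrose and starch with oleate was -0.17 (adjusted p = 0.0457). The call with starch was lost without any one of starch/palmitate replicates 1, 2, 5, 6 and 7 or starch/oleate replicates 1 to 5 (adjusted p between 0.0535 and 0.113), and under TMM scaling it was -0.04 (adjusted p = 0.673). With sucrose 1 of 7 members, Tnfaip3, passed between the fats, where 3.67% of all genes did. As a ratio to Rela, 1 of 6 members passed with starch (23.7% of genes), Irak2, which averaged 1.76 ± 0.25 with palmitate and 1.41 ± 0.08 with oleate (0.33 ± 0.11, adjusted p = 0.0234). For Rela the difference with starch was -0.15 ± 0.06 (adjusted p = 0.0581), and it was called without any one of starch/palmitate replicates 6 and 7, sucrose/oleate replicate 2, starch/oleate replicate 6 and Western diet replicate 2 (adjusted p between 0.0277 and 0.0486).

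No member passed for sucrose against starch over both fats (0 of 7, 9.98% of genes). Tnfaip3 averaged 454 in 17 sucrose mice and 465.8 in 16 starch mice, a difference of -0.01 ± 0.09 with a 95% interval of -0.19 to 0.16. Card9 had an interval of -0.44 to 0.02 and Irak2 one of -0.0014 to 0.24, so neither gene was shown to be alike on the 2 carbohydrates. With palmitate 0 of 7 passed between the carbohydrates (2.04% of genes), and with oleate 1 of 7 (15.1%), which was Irak2.

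Irak2 with oleate had its 9 sucrose mice, at 917 to 1124, above all 9 starch mice, at 726 to 887, where 2.04% of genes had groups that did not overlap. It was higher with sucrose by 0.28 ± 0.08 (adjusted p = 0.0172), and by 0.43 ± 0.10 under TMM scaling (adjusted p = 0.00158). With the B cell and lymph node list as a covariate it was 0.26 ± 0.10 and not called (adjusted p = 0.0976), and 6 of 9 markers of that list were lower with sucrose between the same groups. As a ratio to Rela it averaged 1.83 ± 0.17 with sucrose and 1.41 ± 0.08 with starch (SD), higher by 0.38 ± 0.10 (adjusted p = 0.00586), and it was the 1 of 6 members to pass (12.9% of genes). With palmitate the same comparison gave 891 ± 77.2 with sucrose and 917 ± 124 with starch (SD), a difference of -0.04 ± 0.09 (adjusted p = 0.908). The interaction of carbohydrate and fat, which tests whether these differ, was -0.33 ± 0.13 (adjusted p = 0.140) and was not called, as for the other members (0 of 7, 5.50% of genes). It was called for Irak2 under TMM scaling (-0.49, adjusted p = 0.0343), without the 5 libraries that stood apart (-0.39, adjusted p = 0.0265), in a fit of the compared groups alone (adjusted p = 0.0476), without Western diet replicate 2 (adjusted p = 0.0436), and as a ratio to Rela (-0.53 ± 0.15, adjusted p = 0.0231, where 8.98% of genes passed). The difference of Card9 between sucrose and starch with oleate was -0.38 ± 0.16 (adjusted p = 0.0937), and -0.38 (adjusted p = 0.0478) without chow replicate 4. Without the 5 libraries that stood apart it was -0.46 (adjusted p = 0.0374), and that of Nfkb1 was -0.17 (adjusted p = 0.0389).

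**Figure D3:**
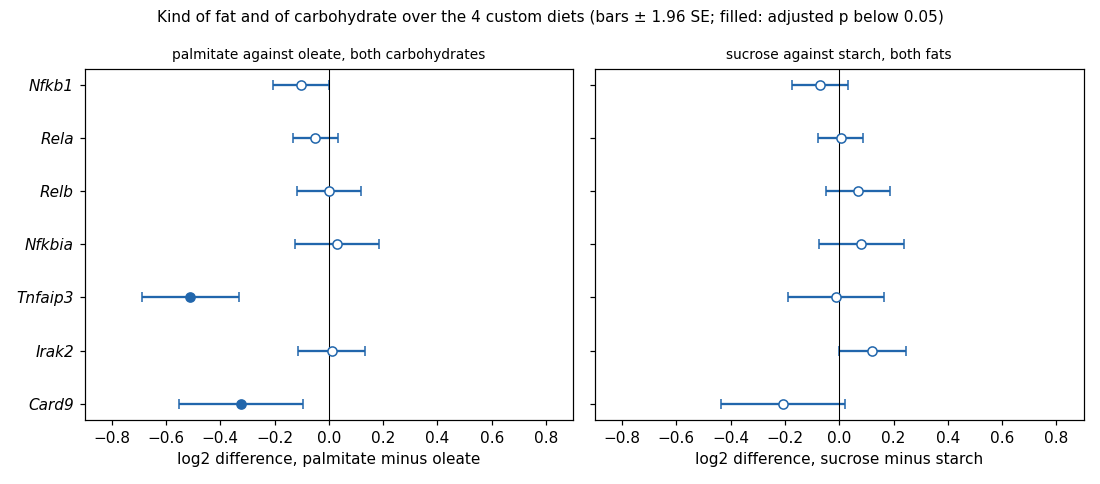
Log2 difference between palmitate and oleate (left) and between sucrose and starch (right) over the 4 custom diets, for the 7 genes (rows), with bars for the 95% interval and filled symbols where the adjusted p is below 0.05. Tnfaip3 at -0.51 and Card9 at -0.32 are the filled symbols on the left, and the right panel has none.

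The Western diet was also set against sucrose/palmitate, and no member passed (0 of 7, 6.11% of genes). Tnfaip3 averaged 427 ± 113 with the Western diet and 375 ± 64.1 with sucrose/palmitate, a difference of 0.19 ± 0.13 (95% interval -0.08 to 0.45). Without the 5 libraries that stood apart, Tnfaip3 was higher with the Western diet by 0.30 (adjusted p = 0.0355) and Nfkb1 by 0.19 (adjusted p = 0.0387).

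The rest of the pathway on the panel was described with starch/oleate against chow, the comparison with the most calls, in which 48.3% of all genes rose. That share is for reference-gene scaling. Under TMM scaling the share of all genes was not counted, so the list counts given there have no share beside them. Of 4 measured subunits 3 rose, including Nfkb2, the precursor of p52, by 0.34 ± 0.09 (adjusted p = 0.000857), and under TMM scaling none rose and 1, Relb, fell. Of 3 measured I kappa B proteins 1 rose, Nfkbiz, an inducible nuclear member, by 0.36 ± 0.12 (adjusted p = 0.00888), which was 0.04 (adjusted p = 0.795) under TMM scaling. Nfkbiz rose with the Western diet by 0.80 ± 0.13 (adjusted p = 5.43e-06), and by 0.59 under TMM scaling (adjusted p = 2.9e-05), and it was higher there than with sucrose/palmitate (0.40 ± 0.13, adjusted p = 0.0480). Of 5 kinases 3 rose, Tbk1 by 0.42 ± 0.07 (adjusted p = 1.98e-06), Ikbke by 0.87 ± 0.17 (adjusted p = 3.40e-05) and Ikbkb by 0.32 ± 0.07 (adjusted p = 0.000142), of which Ikbke kept its call under TMM scaling (0.56, adjusted p = 0.000255). The median difference was 0.23 for the subunits, 0.36 for the I kappa B proteins and 0.32 for the kinases, against 0.34 for all genes.

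Around Irak2, 3 of 7 receptor adaptors and IRAK kinases rose and 1 fell, which was Irak2 itself. Irak4, the kinase that starts the complex, rose by 0.50 ± 0.09 (adjusted p = 1.94e-05) and Myd88, its adaptor, by 0.44 ± 0.09 (adjusted p = 7.40e-05). Under TMM scaling 1 rose, Irak4 (0.18, adjusted p = 0.0462), and 3 fell. Downstream, 3 of 6 TRAF adaptors rose, Traf5 by 0.70 ± 0.11 (adjusted p = 8.74e-07), Traf1 by 0.94 ± 0.20 (adjusted p = 0.000119) and Traf2 by 0.32 ± 0.09 (adjusted p = 0.00337), and 2 rose and 2 fell under TMM scaling.

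In the CARD9 arm all 5 measured genes, Card9 among them, rose with starch/oleate, with a median of 1.00. Clec5a, a myeloid lectin receptor, rose by 1.52 ± 0.19 (adjusted p = 1.99e-08) and Prkcd, the kinase that phosphorylates CARD9, by 1.10 ± 0.16 (adjusted p = 4.13e-07), and 4 of 5 rose under TMM scaling. With sucrose/oleate 4 of 5 rose (28.9% of all genes), with the Western diet 3 (32.8%), with sucrose/palmitate 2 (14.9%) and with starch/palmitate 2 (20.6%). Between the fats 4 of 5 were lower with palmitate (23.6% of all genes), Syk by -0.61 ± 0.14 (adjusted p = 0.000856) and Clec5a by -0.57 ± 0.14 (adjusted p = 0.00170) among them. The macrophage sums given with Tnfaip3 moved in the same direction as this arm, and their part in it was not tested.

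Of 13 receptors that activate the pathway 10 rose with starch/oleate and 7 did so under TMM scaling, where 1 fell. Tnfrsf11a, the receptor RANK, rose by 1.41 ± 0.19 (adjusted p = 6.43e-08), Tlr1 by 1.48 ± 0.23 (adjusted p = 8.38e-07) and Il1rap, the co-receptor of the IL-1 receptor, by 0.74 ± 0.12 (adjusted p = 1.32e-06). Of 15 textbook target genes tested 9 rose and 1 fell, with a median of 0.64, and under TMM scaling 7 rose and 4 fell. The other diets had fewer calls among these targets, with 3 of 15 rising with sucrose/palmitate, 4 with starch/palmitate, 4 with sucrose/oleate and 3 with the Western diet, where the median of the list was 0.20 against 0.25 for all genes, and 2 rose and 3 fell under TMM scaling. The shares of all genes that rose in these diets stand with the CARD9 arm. With starch/oleate Icam1, an adhesion molecule of leukocyte recruitment, rose by 0.84 ± 0.14 (adjusted p = 3.05e-06), Cd83, a marker of activated antigen-presenting cells, by 1.23 ± 0.22 (adjusted p = 9.92e-06), and Vcam1 by 0.64 ± 0.15 (adjusted p = 0.000375). Between the fats 5 of the 15 were lower and 3 higher with palmitate. Icam1 was lower with palmitate (-0.39 ± 0.10, adjusted p = 0.00300), as was Cd83 (-0.58 ± 0.16, adjusted p = 0.00451), while Ccl20, a chemokine, was higher (0.74 ± 0.18, adjusted p = 0.00184). Of the 5 measured inhibitors, Tnfaip3 and Tollip rose with starch/oleate, Tollip by 0.18 ± 0.07 (adjusted p = 0.0265) and with -0.14 (adjusted p = 0.293) under TMM scaling.

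Some members varied together among mice of one diet. With the diet means taken off, Nfkbia and Relb varied together over the 48 mice (r = 0.67, adjusted p = 0.00021; rho = 0.54, adjusted p = 0.00168; permutation within diets, adjusted over 21 pairs), in each of the 6 diets. The unadjusted p of that r, 1e-05, is the smallest that 100000 permutations can give. The r was 0.62 without the 2 mice farthest from the median of Nfkbia, 0.65 without the 5 libraries that stood apart, and 0.69 under TMM scaling.

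Other pairs with an adjusted permutation p of r below 0.05 were Nfkbia and Rela (r = 0.45, rho = 0.35), Rela and Relb (r = 0.45, rho = 0.43) and Nfkbia and Nfkb1 (r = 0.41, rho = 0.45), with r under TMM scaling of 0.53, 0.63 and 0.40. Without the 2 mice farthest out their r was 0.29, 0.35 and 0.40. The first of these had an adjusted p of 0.0159 for r and 0.0604 for rho. Tnfaip3 and Nfkb1 had r = 0.45 and rho = 0.48, with adjusted p-values of 0.0159 and 0.0103, and r was 0.36 without the 2 mice farthest out and -0.11 under TMM scaling. By rho alone 3 more pairs passed. Tnfaip3 and Card9 had rho = 0.46 (adjusted p = 0.0131) and r = 0.32 (adjusted p = 0.0829), and r was 0.57 without the 2 mice farthest out, 0.59 without the 5 libraries that stood apart and 0.16 under TMM scaling. Nfkb1 and Relb had rho = 0.39 (adjusted p = 0.0284) and r = 0.29 (adjusted p = 0.100), and Irak2 and Nfkbia rho = 0.36 (adjusted p = 0.0408) and r = 0.29 (adjusted p = 0.0937). Members scaled by the same reference genes share that scale. Under TMM scaling they also share 1 factor per library, so the TMM values cannot show a relation free of a shared scale. How many pairs among all genes tested would pass was not computed, so varying together is not shown to be particular to these pairs.

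Set against summed marker levels within diets, 16 of 35 relations had an adjusted permutation p of r below 0.05, and 9 of these also one of rho. How many of all genes tested follow the same lists was not computed, so these relations are not shown to be particular to the members. Tnfaip3 followed the macrophage list with r = 0.77 and rho = 0.76 (adjusted p = 0.000175 for each, permutation), in all 6 diets. That r was 0.71 without the 2 mice farthest out, 0.72 without the 5 libraries that stood apart and 0.63 under TMM scaling. Card9 followed the same list with r = 0.60 (adjusted p = 0.00448) and rho = 0.64 (adjusted p = 0.000233), in 5 of 6 diets, and r was 0.85 without the 5 libraries, 0.74 without the 2 mice farthest out and 0.45 under TMM scaling. Western diet replicate 2 had the highest Card9 of its group, 313, and the lowest macrophage sum of its group.

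Irak2 followed the adipocyte list instead, with r = 0.69 and rho = 0.61 (adjusted p = 0.000175 for each), in all 6 diets, with 0.63 without the 2 mice farthest out, 0.54 without the 5 libraries and 0.71 under TMM scaling. Relb followed the endothelial list (r = 0.56, adjusted p = 0.00448; rho = 0.53, adjusted p = 0.00193; 0.46 without the 2 farthest), in 6 of 6 diets. Rela ran against the macrophage list (r = -0.46, adjusted p = 0.0152; rho = -0.36, adjusted p = 0.0779; -0.37 without the 2 farthest), and Nfkb1 went with the B cell and lymph node list (r = 0.49, adjusted p = 0.00373; rho = 0.50, adjusted p = 0.00315; 0.46 without the 2 farthest), which was -0.21 under TMM scaling.

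Further relations passed the threshold for r. Nfkbia went with the B cell and lymph node list (r = 0.52, adjusted p = 0.00799; rho = 0.42, adjusted p = 0.0213; 0.39 without the 2 farthest), with 0.16 under TMM scaling, and with the endothelial list (r = 0.45, adjusted p = 0.0128; rho = 0.47, adjusted p = 0.0104; 0.40 without the 2 farthest). Rela also went with the endothelial list (r = 0.39, adjusted p = 0.0290; rho = 0.43, adjusted p = 0.0194; 0.34 without the 2 farthest), and its r was 0.57 under TMM scaling. Nfkb1 went with the T cell list (r = 0.49, adjusted p = 0.0143; rho = 0.40, adjusted p = 0.0420; 0.36 without the 2 farthest), with 0.01 under TMM scaling. Card9 ran against the endothelial list (r = -0.46, adjusted p = 0.0258; rho = -0.37, adjusted p = 0.0553; -0.40 without the 2 farthest) and the adipocyte list (r = -0.48, adjusted p = 0.0271; rho = -0.25, adjusted p = 0.212; -0.22 without the 2 farthest). The remaining relations of these 16, Nfkbia with the adipocyte list, Tnfaip3 with the B cell and lymph node and T cell lists and Relb with the B cell and lymph node list, had r between 0.33 and 0.38 (adjusted p between 0.0291 and 0.0422) and missed the threshold by rho (adjusted p between 0.0671 and 0.212).

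**Figure D4:**
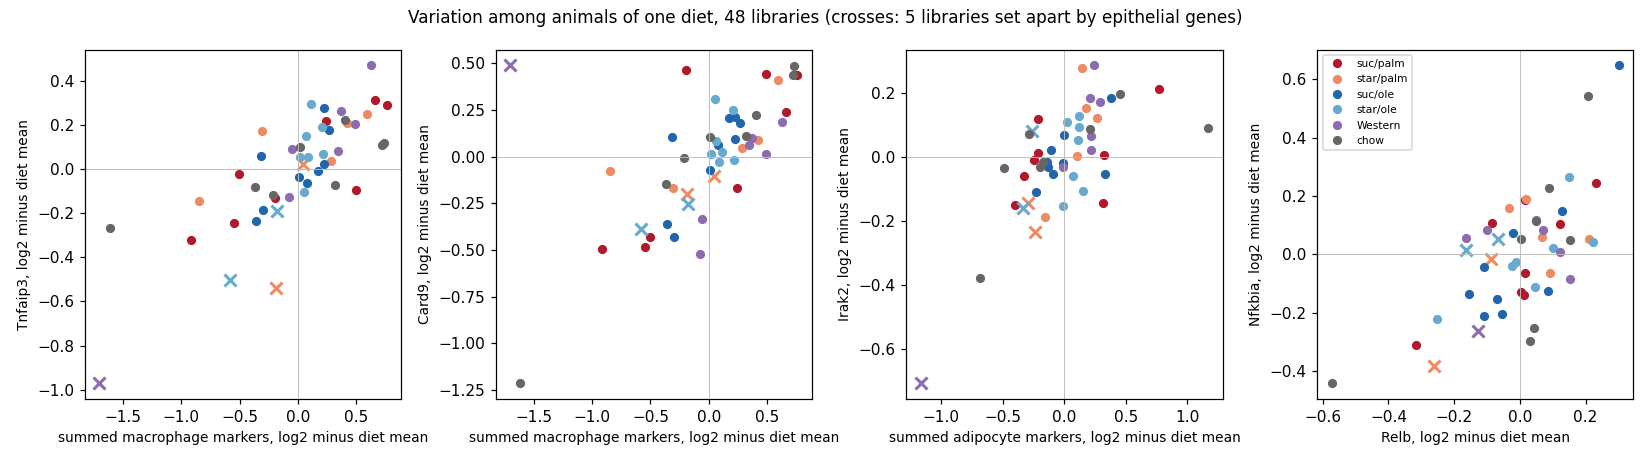
Each point is 1 of 48 mice, as log2 scaled count minus the mean of its diet, for Tnfaip3 and Card9 against summed macrophage markers, Irak2 against summed adipocyte markers and Nfkbia against Relb; crosses are the 5 libraries with high epithelial genes. The r values are 0.77 for Tnfaip3, 0.60 for Card9, 0.69 for Irak2 and 0.67 for Nfkbia, and Western diet replicate 2 lies in the lower left for Tnfaip3 and Irak2 and in the upper left for Card9.

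The genes most like each member within diets, by Spearman rho over the 48 mice among all genes tested, were Lair1 (0.82), Entpd1 (0.80) and Casp1 (0.79) for Tnfaip3, and Litaf (0.81), Bax (0.73) and Runx1 (0.72) for Card9. For Irak2 they were Pparg (0.67), Bcap31 (0.64) and Ets1 (0.60). For Relb they were Il6st (0.63), Stat3 (0.61) and Trp53 (0.58), and for Nfkbia C4a (0.57), Tnfsf10 (0.55) and Relb (0.54). Nfkb1 was most like Maf (0.67), C1ra (0.65) and Cd86 (0.65), and Rela most like Ccl12 (0.59), Cfi (0.55) and Il17rb (0.55). Under TMM scaling the rho of Nfkb1 with these 3 was 0.10, 0.23 and -0.11, and that of Rela with Ccl12 0.11, while Litaf, Bax and Runx1 stayed the first 3 for Card9 and Pparg the first for Irak2.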

How the data were processed

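RNA of epididymal fat from 48 mice was counted on the nCounter Mouse Immunology panel. The deposited values are whole-number counts per probe, not normalized, as the values in the authors' table show, and how the scanner output was made into it is not given in the sources used here. The labels do not say whether mice shared a cage or run, so p-values measure the spread between these samples. Each library was scaled by the geometric mean of its 14 reference genes. The 491 of 547 genes whose mean count reached 10 were fitted with edgeR 4.0.16 (R 4.3.3), quasi-likelihood, all 6 groups in one fit, two-sided, with Benjamini-Hochberg adjustment over all genes tested and a threshold of 0.05. Every adjusted p of a difference in the text is of this kind unless named otherwise. Ratios to Rela were tested the same way, with each library scaled to its Rela count (490 genes). Libraries stood apart where their epithelial marker score lay over 3 median absolute deviations above the median. The 7 genes and the pathway and marker lists were chosen with earlier results of these data known. All 7 passed the filter, and genes outside the 7 were named as the 3 of each list with the smallest p, or as the 3 most alike, in each comparison described.

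Alternatives were TMM scaling, DESeq2 1.42.0, other filters, a replicate block, covariates, fewer groups, leaving out libraries that stood apart, and leaving out each library. Relations within diets used 100000 permutations. Those with marker lists were added after the comparisons were seen. Replicate numbers did not pair samples: the mean correlation of deviations was -0.0156 over 112 pairs of mice with the same number in different diets and 0.0067 over 846 with different numbers. No 2 libraries were copies of each other, the lowest chi-square per degree of freedom over 1128 pairs being 4.614. Counts were also simulated for starch/oleate against chow with 491 genes. The fit called 66.2% of genes changed 1.5-fold, 95.0% of those changed 2-fold and 0.687% of unchanged genes. How an error in the reference-gene scale would alter these shares was not tested.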

Additional observations from a re-analysis of the deposited data

Results flagged for a closer look

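In 42 groups of one gene in one diet, 7 held a library whose gap to its nearest neighbour was large for the group's range (Dixon's test at the 95% level), where chance gives about 1 in 20 groups. Irak2 was low in Western diet replicate 2, at a scaled count of 486, where the other 6 mice had a higher value. Chow replicate 7 had the lowest Irak2 of its group, at 889. Nfkbia and Rela were both highest in sucrose/oleate replicate 2, at 437 and 627. Nfkb1 reached 769.8 in starch/palmitate replicate 3, the highest of the 48 mice. Relb was lowest in chow replicate 5, at 386. Card9 was highest for its diet in starch/palmitate replicate 4, at 258. Western diet replicate 2 and starch/palmitate replicate 3 are among the 5 libraries with high epithelial genes.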

How the results depend on the processing

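Of the calls against chow and between the custom diets, those of Tnfaip3 with both oleate diets and between the fats, of Irak2 with sucrose/palmitate, starch/oleate and the Western diet, of Nfkb1 with the Western diet and of Card9 with starch/oleate and the Western diet held under all 10 alternatives. The number of members called with sucrose/palmitate against chow was 3, and 1 under TMM scaling, with the replicate block, with the positive control ratio, the B cell and lymph node list or the macrophage list as a covariate, and in a fit of the compared groups alone. With starch/palmitate it was 3, and 0 with the positive control ratio and 1 with the macrophage list as a covariate. With sucrose/oleate it was 4, and 1 with either of these covariates. Between the fats over both carbohydrates it was 2, and 1 under TMM scaling, with the replicate block and with the macrophage list. With sucrose it was 1, and 0 with the replicate block and with the positive control ratio. With starch it was 3, and 1 with the B cell and lymph node list or the macrophage list. The interaction had 0 members called, and 1 under TMM scaling, without the libraries that stood apart and with the compared groups alone. Sucrose against starch with oleate had 1, and 0 with the B cell and lymph node list and 3 without the libraries that stood apart and with the compared groups alone. The Western diet against sucrose/palmitate had 0, and 2 without those libraries, and relative to Rela the fats with starch had 1, and 2 without them. Rela with starch/oleate was reversed to -0.19 under TMM scaling, and the relation of Tnfaip3 and Nfkb1 to -0.11. The cause of these changes was not tested. Leaving out 1 library at a time gave 1 to 4 members called with sucrose/palmitate, 1 to 4 with starch/palmitate, 2 to 4 with sucrose/oleate, 4 to 5 with starch/oleate, 4 in each case with the Western diet, 1 to 3 between the fats, 0 to 1 between the fats with sucrose, 2 to 4 with starch, and 0 to 1 for the interaction. The replicate block took 5 single-gene calls past the threshold to no longer passing, DESeq2 added 2 and testing without a filter on low counts lost 2. The reference genes set the scale: 1 to 9 of the 14 passed against chow, so small shifts such as those of Rela rest on that choice. A comparison of members' proteins was not run.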
